A study of Mus musculus with 6 samples.

Results

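RNA-seq values of 10 genes of glycolysis and of the hypoxia response were followed through 6 libraries of mouse embryonic stem (mES) cells. The genes were named for their roles, with earlier results of these data known and no threshold on a value: *Slc2a1*, *Hk2*, *Pfkl*, *Aldoa*, *Pgk1*, *Eno1*, *Ldha*, *Pdk1*, *Bnip3* and *Egln3*. They are 10 of the 16668 genes listed in every library, and all 10 had a mean of at least 0.5 RPKM (reads scaled to the exon length of a gene and to the mapped reads of a library) and were tested. The questions were whether these genes moved together between the libraries whose files are numbered 1 to 3 and those numbered 4 to 6, and whether they moved with the condition word in the file name inside those sets of 3.

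Glycolysis splits glucose into pyruvate in the cytosol. Glucose enters through transporters such as Slc2a1 (GLUT1), is trapped by hexokinases such as Hk2, and is carried on by phosphofructokinase (Pfkl), aldolase (Aldoa), phosphoglycerate kinase (Pgk1) and enolase (Eno1). Ldha turns pyruvate into lactate, whereas Pdk1 phosphorylates and slows the pyruvate dehydrogenase complex, so that less pyruvate is oxidized in the mitochondria. When oxygen is short, the transcription factor HIF-1 is no longer degraded and raises the transcription of many of these genes, together with *Bnip3*, which encodes a protein of mitochondrial clearance, and *Egln3*, one of the prolyl hydroxylases that mark HIF-1α for destruction. Pluripotent stem cells are known for a high rate of glycolysis even when oxygen is available.

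All libraries came from E14 mES cells, a feeder-independent line of strain 129/Ola, grown in N2B27 medium with 2i (the inhibitors PD0325901 and CHIR99021) and LIF, and transfected with siRNA. The sample labels give 3 groups of 2 libraries: control (wild type, with control siRNA per the methods), Ring1B-KD (siRNA against Ring1B, the product of *Rnf2*, which ubiquitylates histone H2A) and Dzip3-KD (siRNA against Dzip3, which is another ligase of this kind). Transient siRNA leaves part of the target in place, and the single line is the only genetic background. The study describes the libraries of a group as biological duplicates.

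The file names carry a number and a condition word of their own, and the word differed from the sample label for 4 of the 6 libraries. The files numbered 1, 2 and 3 (the first file set) hold control 1, control 2 and Ring1B-KD 1 by label, with the file words control, Ring1BKD and Dzip3KD. The files numbered 4, 5 and 6 (the second file set) hold Ring1B-KD 2, Dzip3-KD 1 and Dzip3-KD 2 by label, with the file words control, Ring1BKD and Dzip3KD. Each file set therefore held each word once. The control label occurred in the first file set alone and the Dzip3-KD label in the second alone, so for these groups label and file set cannot be told apart. Neither the labels nor the methods say what the number in the file name stands for.

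The targeted genes were read in every library first. Values are given in the order of the file numbers, so the first file set reads control 1, control 2, Ring1B-KD 1 and the second Ring1B-KD 2, Dzip3-KD 1, Dzip3-KD 2. *Rnf2* was at 30.6, 20.4 and 26.8 RPKM in the first file set, and at 28.8, 19.4 and 28.2 RPKM in the second. Its lowest values were thus in the libraries with the file word Ring1BKD, which are labelled control 2 and Dzip3-KD 1. By label, *Rnf2* differed by 0.15 (SE 0.24) on the log2(RPKM + 1) scale between Ring1B-KD and control (limma, adjusted p = 0.965). By file word within the file sets, the difference Ring1BKD minus control was -0.55 (SE 0.13, limma, adjusted p = 0.232). *Dzip3* was at 2.24, 2.68 and 1.18 RPKM in the first file set and at 1.89, 1.70 and 1.31 RPKM in the second. Its lowest values were in the libraries with the file word Dzip3KD, labelled Ring1B-KD 1 and Dzip3-KD 2. The *Dzip3* values rested on few reads, 39, 53 and 23 in the first file set and 36, 32 and 27 in the second. The difference Dzip3-KD minus control was -0.47 (SE 0.24, limma, adjusted p = 0.458) by label and -0.45 (SE 0.21, limma, adjusted p = 0.754) by file word. Group names below stand for the labels, file words are named as such, and neither is taken as proof of a knockdown in a library.

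Whole reads recovered from the steps of the RPKM values gave 3015348 to 3583610 mapped reads per library. At that depth 3 reads on a gene of 2 kb correspond to 0.419 to 0.497 RPKM. The first principal component over the 11538 genes tested, which held 40.2% of the variance, separated the file sets. The 8 mES cell markers summed to 1380 to 1787 RPKM in the first file set and to 1585 to 1805 RPKM in the second, with none at 0. None of the 8 passed between the file sets (limma), but 5 had an unadjusted p under 0.05. *Nanog* and *Dppa5a* were higher and *Esrrb*, *Klf4* and *Tfcp2l1* lower in the second set without overlap, with log2 differences of 0.37, 0.36, -0.43, -0.32 and -0.48, and with voom weights 2 of the 8 were called higher and 2 lower. Of all tested genes, 5.53% passed by limma and 23.2% had an unadjusted p under 0.05. Without overlap 13.1% were higher and 15.5% lower, and with voom weights 10.1% were called. The 7 markers of primitive endoderm summed to 1.75 to 2.88 and 1.09 to 1.38 RPKM, the 4 listed of 7 fibroblast markers to 1.18 to 3.10 and 2.16 to 2.30 RPKM, and the 6 listed of 7 trophectoderm markers to 8.24 to 9.61 and 10.5 to 15.8 RPKM. Of these, *Foxa2* was at 0 throughout the first file set, and *Lum* and *Cdx2* throughout the second. Most of the trophectoderm sum was *Tfap2c*, at 6.70, 6.46 and 7.92 RPKM in the first file set and at 9.17, 8.18 and 14.3 RPKM in the second. The part of the mES cell markers and of other cell types in the results below was not tested, and in bulk RNA fewer cells of a type cannot be told apart from less RNA per cell.

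The start-site regions of the 4 members that differed between the file sets are shown because HIF-1 binds the core motif whose letters are ACGTG or GCGTG. Each region runs from 250 bases before to 50 bases after an annotated RefSeq start (sequence table of build GRCm38.p6) and was placed on mm9 by an exact match of all 300 bases. Capitals mark ACGTG or GCGTG on either strand, and CACGTG holds ACGTG once on each strand, so it counts as 2 overlapping sites. The regions, each written 5′ to 3′ on the strand of its gene, were *Slc2a1* at chr4:118781100-118781399 (plus strand), *Ldha* at chr7:54100924-54101223 (plus strand, the first of its start sites), *Bnip3* at chr7:146101140-146101439 (minus strand) and *Pdk1* at chr2:71711031-71711330 (plus strand, the first of its start sites).
Slc2a1: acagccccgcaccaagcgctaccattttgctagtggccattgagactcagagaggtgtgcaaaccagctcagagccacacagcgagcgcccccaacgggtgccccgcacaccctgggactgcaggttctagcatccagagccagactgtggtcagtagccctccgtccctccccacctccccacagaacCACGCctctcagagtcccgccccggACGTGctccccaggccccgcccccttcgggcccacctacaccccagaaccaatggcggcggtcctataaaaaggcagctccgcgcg
Ldha: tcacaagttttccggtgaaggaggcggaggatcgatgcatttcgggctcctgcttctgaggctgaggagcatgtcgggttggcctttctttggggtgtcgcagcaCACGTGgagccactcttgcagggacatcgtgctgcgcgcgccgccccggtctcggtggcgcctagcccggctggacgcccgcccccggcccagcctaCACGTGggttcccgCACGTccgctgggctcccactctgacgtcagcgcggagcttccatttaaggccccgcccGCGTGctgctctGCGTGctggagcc
Bnip3: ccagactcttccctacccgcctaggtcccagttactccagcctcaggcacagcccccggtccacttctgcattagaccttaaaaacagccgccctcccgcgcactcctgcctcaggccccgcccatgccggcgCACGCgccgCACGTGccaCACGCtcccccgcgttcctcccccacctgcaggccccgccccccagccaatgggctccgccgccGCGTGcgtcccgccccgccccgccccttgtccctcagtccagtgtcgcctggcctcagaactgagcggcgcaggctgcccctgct
Pdk1: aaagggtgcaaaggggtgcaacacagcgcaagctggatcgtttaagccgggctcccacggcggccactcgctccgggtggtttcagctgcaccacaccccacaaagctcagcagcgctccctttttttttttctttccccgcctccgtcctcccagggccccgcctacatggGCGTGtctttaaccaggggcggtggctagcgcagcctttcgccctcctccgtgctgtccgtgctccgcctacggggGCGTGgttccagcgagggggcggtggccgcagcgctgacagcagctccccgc
In the mouse annotation of mm9 the genes themselves span chr4:118781316-118809935 (*Slc2a1*), chr7:54096845-54110997 (*Ldha*), chr7:146082519-146101202 (*Bnip3*) and chr2:71711281-71741915 (*Pdk1*). The *Ldha* region held 7 sites, that of *Bnip3* held 5, and those of *Slc2a1* and *Pdk1* held 2 each. The second start sites of *Ldha* and *Pdk1*, which are not shown, had 2 and 0 sites. Over all 32851 promoters of the table, 43.8% held at least 1 site, 20.6% at least 2 and 1.66% at least 5. All 10 members matched the table, with 16 promoters on the chromosome of their gene, of which 14 held a site. Entries of a member symbol on another chromosome were not counted. Members that did not pass the test between the file sets had sites too, such as *Hk2* and *Pgk1* with 2 each. A match is only a run of letters and does not show binding. The part of these sites in the differences was not tested.

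Between the file sets the 10 members did not move as a block. *Slc2a1*, *Ldha* and *Bnip3* rose in the second file set and *Pdk1* fell, while the remaining 6 did not pass the test (limma with a mean trend on log2(RPKM + 1), adjusted p under 0.05 over all 11538 genes tested). The share of all tested genes that passed was 5.53%, of which 3.09% of the tested genes were higher and 2.44% lower in the second file set. At an unadjusted p under 0.05 the count was 6 of 10 members, against 23.2% of all tested genes. The values of the file sets did not overlap for 4 members that were higher and 2 that were lower in the second, whereas 13.1% and 15.5% of all tested genes were separated in these directions. The median difference of the members was 0.49 on the log2 scale, and that of all tested genes -0.04. Without 1 library the member median ranged from 0.23 (without Ring1B-KD 1) to 0.62 (without control 1).

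**Figure D1:**
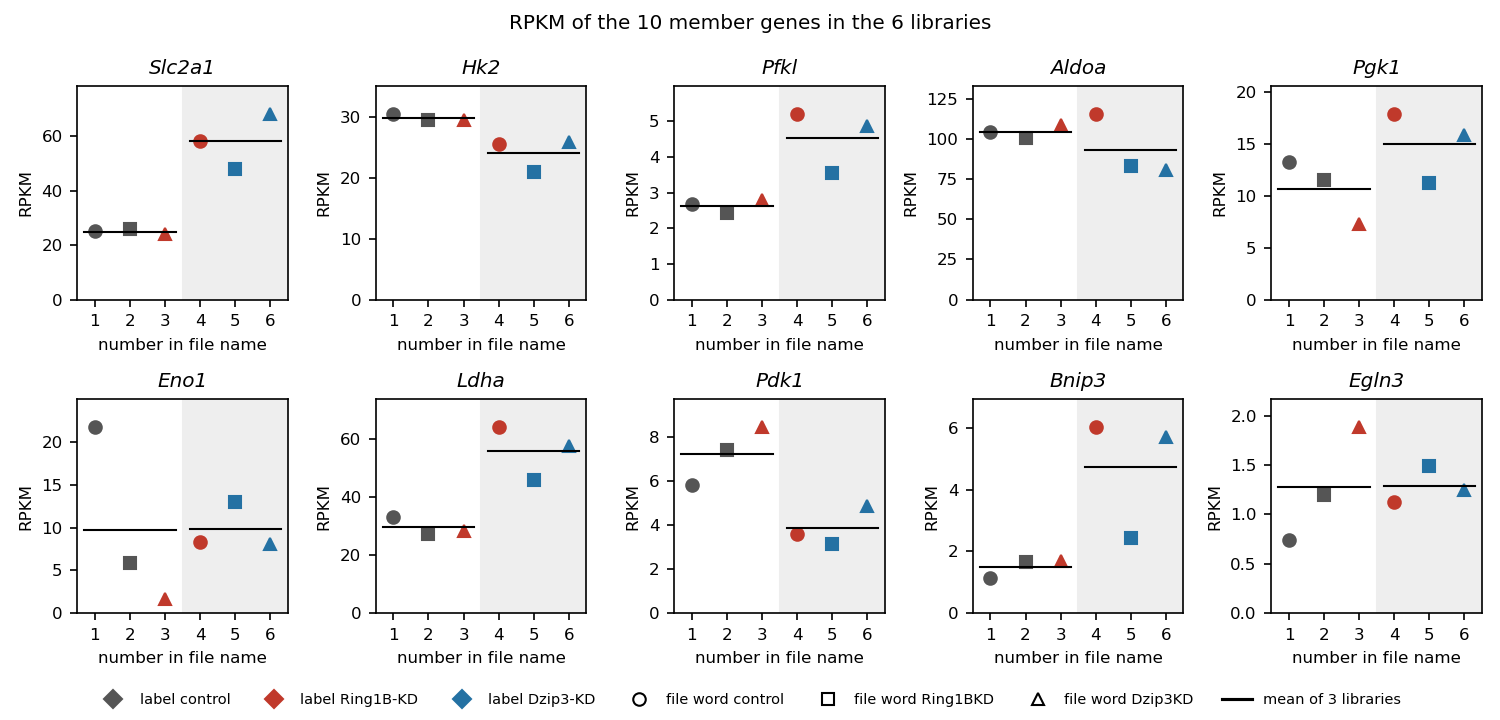
RPKM of the 10 member genes (vertical axes, each from 0) against the number in the file name (horizontal axes), with colour for the sample label, marker shape for the condition word in the file name, and a line for the mean of the 3 libraries of a file set. In *Slc2a1*, *Pfkl*, *Ldha* and *Bnip3* the shaded libraries 4 to 6 lie above libraries 1 to 3, in *Hk2* and *Pdk1* they lie below, and in the other 4 genes the sets overlap.

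*Slc2a1*, which brings glucose into the cell, had the smallest adjusted p of the members. *Slc2a1* was at 25.0, 25.7 and 24.0 RPKM in the first file set, and at 58.3, 47.7 and 68.1 RPKM in the second. Every library of the second file set lay above every library of the first, and the values within the first differed little. The means were 24.9 ± 0.885 and 58.1 ± 10.2 RPKM (SD, n = 3 each), a 2.33-fold difference on the RPKM scale. The log2 difference was 1.18 (SE 0.14, 95% interval 0.86 to 1.49, limma, adjusted p = 0.00413), and the reads behind it numbered 194 to 227 and 401 to 628 per library. The 2 libraries labelled Ring1B-KD thus differed as much as the file sets did, with 24.0 and 58.3 RPKM.

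The enzymes of the first, committing steps of the pathway did not pass the test. *Hk2* was at 30.6, 29.6 and 29.6 RPKM in the first file set and at 25.5, 20.9 and 26.0 RPKM in the second. Its values did not overlap, but the log2 difference of -0.30 (SE 0.12) did not pass the test (limma, adjusted p = 0.175). *Pfkl*, the liver-type phosphofructokinase, was at 2.68, 2.43 and 2.79 RPKM and then at 5.21, 3.54 and 4.88 RPKM, on 30 to 35 and 43 to 65 reads. Its values did not overlap in the upward direction, and the log2 difference was 0.60 (SE 0.16, limma, adjusted p = 0.0666). *Pfkl* passed when libraries were scaled to their 75th percentile (adjusted p = 0.0389, limma) and when recovered reads were tested with voom weights (adjusted p = 0.0325, limma). Over all alternatives its adjusted p ranged from 0.0325 to 0.194.

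The middle and late steps of the pathway did not pass the test. *Aldoa*, the most abundant member, was at 104.5, 100.9 and 108.7 RPKM in the first file set and at 115.8, 83.2 and 81.1 RPKM in the second (log2 difference -0.18, SE 0.15, limma, adjusted p = 0.507). Its highest and its lowest library both lay in the second file set. *Pgk1* was at 13.3, 11.5 and 7.31 RPKM and at 17.9, 11.2 and 15.9 RPKM (log2 difference 0.47, SE 0.22, limma, adjusted p = 0.245), and the sets overlapped. *Eno1* was at 21.7, 5.81 and 1.66 RPKM in the first file set, a wider range than in any other member, and at 8.35, 12.9 and 8.07 RPKM in the second file set. Its set means were 9.73 and 9.78 RPKM while its log2 difference was 0.51 (SE 0.60, limma, adjusted p = 0.664), and no whole reads could be recovered for it.

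At the pyruvate branch point the members moved in opposite directions. *Ldha* was at 33.2, 27.2 and 28.4 RPKM in the first file set and at 64.1, 45.8 and 57.5 RPKM in the second, where every library was higher. The means were 29.6 ± 3.16 and 55.8 ± 9.26 RPKM (SD, n = 3 each), a ratio of 1.89. On the log2 scale *Ldha* differed by 0.89 (SE 0.15, 95% interval 0.56 to 1.22, limma, adjusted p = 0.0145), on 180 to 193 and 289 to 409 reads. *Pdk1* was at 5.82, 7.42 and 8.46 RPKM in the first file set and at 3.62, 3.13 and 4.90 RPKM in the second, where every library was lower. Its means were 7.23 ± 1.33 and 3.88 ± 0.913 RPKM (SD, n = 3 each), a ratio of 0.537. *Pdk1* fell by 0.76 on the log2 scale (SE 0.18, 95% interval -1.17 to -0.35, limma, adjusted p = 0.0436), on 91 to 148 and 53 to 91 reads.

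The 2 members outside the glucose pathway were also the least abundant on the RPKM scale. *Bnip3* was at 1.13, 1.66 and 1.69 RPKM in the first file set and at 6.03, 2.44 and 5.72 RPKM in the second. All of the second file set lay above the first, though the library labelled Dzip3-KD 1 stood closer to the first set than the other two did. The means were 1.49 ± 0.313 and 4.73 ± 1.99 RPKM (SD, n = 3 each), a ratio of 3.17, and the log2 difference was 1.14 (SE 0.27, 95% interval 0.54 to 1.73, limma, adjusted p = 0.0382). These values rested on 6 to 10 and 14 to 36 reads per library. *Egln3* was at 0.744, 1.20 and 1.88 RPKM and at 1.13, 1.49 and 1.25 RPKM, on 6 to 17 reads, and its log2 difference was 0.04 (SE 0.21, 95% interval -0.43 to 0.51, limma, adjusted p = 0.935). A change of *Egln3* within that interval was not excluded.

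**Figure D2:**
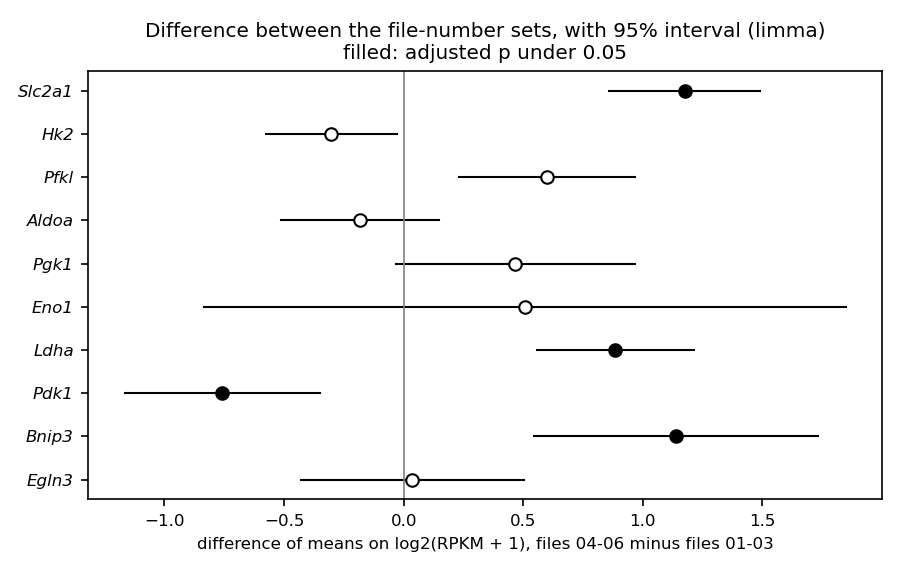
Difference of each member between the file sets (files 4 to 6 minus files 1 to 3, horizontal axis, on log2(RPKM + 1)), with points for the estimate and bars for the 95% interval of limma, and filled points have an adjusted p under 0.05. *Slc2a1*, *Ldha* and *Bnip3* lie to the right of 0 and *Pdk1* to the left, and the interval of *Eno1*, from -0.84 to 1.85, is the widest.

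These calls depended on single libraries to different degrees. *Slc2a1* passed without any 1 of the 6 libraries (limma, adjusted p from 0.0038 to 0.0279). *Ldha* no longer passed without the library labelled Ring1B-KD 2 (log2 difference 0.78, limma, adjusted p = 0.0612) or without Dzip3-KD 2 (0.86, adjusted p = 0.0629). Of these fits, *Bnip3* passed only in the one without Dzip3-KD 1 (1.47, limma, adjusted p = 0.00976) and otherwise had an adjusted p of up to 0.134. *Pdk1* passed in none of the 6 fits (limma, adjusted p from 0.0602 to 0.129). The sign of the difference stayed the same in each of these fits for the 4 genes.

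Some members share long stretches with other places in the genome, and only uniquely assigned reads entered the values. Of the 32-base words of the longest annotated transcript, 94.0% occurred elsewhere in mm9 for *Pgk1*, 77.0% for *Eno1*, 76.3% for *Bnip3*, 51.5% for *Ldha* and 38.7% for *Aldoa*. The share was at most 1.73% for *Pfkl*, *Pdk1*, *Hk2*, *Slc2a1* and *Egln3*. The methods do not give the read length, so the share of reads lost in this way is not known. Levels of the first 5 genes are uncertain to that extent, and the part of shared sequence in their differences was not tested. *Slc2a1* and *Pdk1*, which had shares of 0 and 1.71%, passed in opposite directions without this limit.

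**Figure D3:**
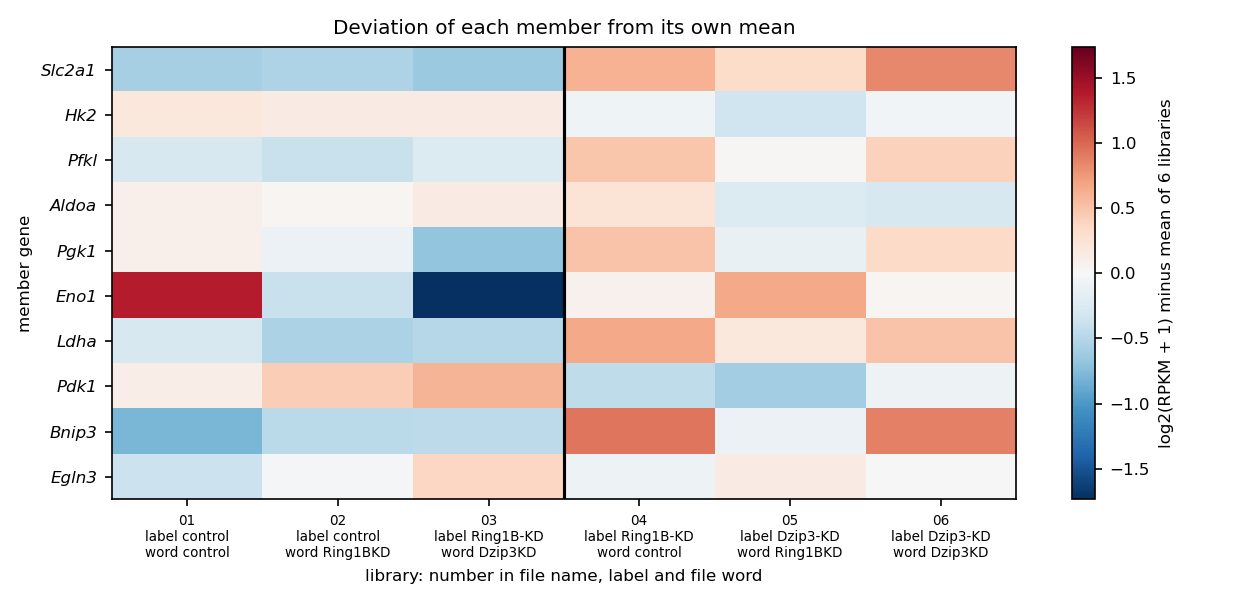
Deviation of each member (rows) from its own mean over the 6 libraries, on log2(RPKM + 1), for each library (columns, with number, label and file word). The black line separates the file sets. *Slc2a1*, *Ldha* and *Bnip3* turn from blue to red or white across the line, *Pdk1* turns the other way, and *Eno1* spans the colour scale within the first set.

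Other genes of glycolysis and lactate handling were read from a list of the same pathway. Of 21 such genes, all tested, 4 were higher in the second file set, 0 were lower and 17 did not pass, with a median log2 difference of 0.02 against -0.04 over all tested genes. At an unadjusted p under 0.05 the count was 6, and with voom weights on recovered reads 5 of 20 were higher and 1 lower. By limma 3.09% of all genes tested were higher and 2.44% lower. An unadjusted p under 0.05 was found for 23.2% of them, and 10.1% passed with voom weights. *Slc16a3*, the lactate exporter MCT4, was at 0.643, 0.679 and 0.920 RPKM in the first file set and at 5.99, 5.46 and 7.58 RPKM in the second, an 8.49-fold ratio of means. On the log2 scale *Slc16a3* differed by 2.06 (SE 0.17, limma, adjusted p = 0.000795), on 5 to 8 and 46 to 70 reads. *Slc2a3*, the glucose transporter GLUT3, rose from 154.8, 161.3 and 141.8 RPKM to 297.8, 298.5 and 280.7 RPKM (0.93, SE 0.11, limma, adjusted p = 0.00415). On this per-length scale *Slc2a3* stood above *Slc2a1* in every library. *Slc16a1*, the lactate transporter MCT1, rose from 16.5, 18.4 and 17.3 RPKM to 29.4, 32.3 and 36.7 RPKM (0.87, SE 0.12, limma, adjusted p = 0.00955). *Ldhb*, the other common lactate dehydrogenase subunit, rose from 19.6, 17.0 and 33.9 RPKM to 57.5, 50.9 and 79.0 RPKM (1.41, SE 0.24, limma, adjusted p = 0.0151), with 51.3% of its 32-base words found elsewhere in mm9. The 4 genes that passed thus encode transporters of glucose or lactate and a lactate dehydrogenase subunit, as do *Slc2a1* and *Ldha* among the members. *Slc16a3* and *Slc2a3* passed without any 1 of the 6 libraries (limma, adjusted p up to 0.00879 and 0.0279). *Slc16a1* no longer passed without the library labelled Dzip3-KD 2 (limma, adjusted p = 0.0512, otherwise from 0.0245). *Ldhb* no longer passed without control 1, Ring1B-KD 2 or Dzip3-KD 2 (limma, adjusted p = 0.0576, 0.0602 and 0.0644, otherwise from 0.0107).

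The enzymes between hexose phosphate and pyruvate did not pass in the main fit. *Tpi1*, triosephosphate isomerase, was at 20.5, 18.2 and 17.0 RPKM and at 36.3, 24.9 and 25.3 RPKM (log2 difference 0.59, SE 0.16, limma, adjusted p = 0.0653), without overlap of the sets. *Gapdh* was at 62.3, 53.8 and 89.2 RPKM and at 44.1, 41.1 and 48.1 RPKM (log2 difference -0.58, SE 0.18, limma, adjusted p = 0.0874), without overlap in the other direction. *Gapdh* passed with the file word as a block (limma, adjusted p = 0.0313) and with voom weights (limma, adjusted p = 0.0269). *Gpi1*, *Pgam1* and *Pkm*, which encode glucose phosphate isomerase, phosphoglycerate mutase and pyruvate kinase, had log2 differences of -0.40, 0.08 and -0.15 (limma, adjusted p = 0.227, 0.787 and 0.502). *Gapdh*, *Pkm* and *Tpi1* shared 85.8%, 62.6% and 37.8% of their 32-base words with other places in mm9.

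Of 36 other hypoxia-responsive genes, 31 were abundant enough to be tested. Of these, 3 were higher in the second file set, 0 were lower and 28 did not pass, with a median log2 difference of -0.02. Of all genes tested, 3.09% were higher and 2.44% lower by limma. At an unadjusted p under 0.05 the count was 9, against 23.2% of all genes tested. With voom weights 4 of 30 were higher and 1 lower, against 10.1%. *Slc2a3* is in this list as well. *P4ha1*, a subunit of collagen prolyl hydroxylase, rose from 1.23, 1.87 and 1.69 RPKM to 3.67, 3.94 and 3.66 RPKM (0.88, SE 0.16, limma, adjusted p = 0.0175). *Wsb1*, a component of a ubiquitin ligase, rose from 26.2, 28.0 and 23.4 RPKM to 39.2, 37.6 and 35.6 RPKM (0.52, SE 0.12, limma, adjusted p = 0.0348). The collagen lysyl hydroxylases *Plod2* and *Plod1* had differences of 0.59 and 0.48 without overlap of the sets (limma, adjusted p = 0.0564 and 0.0805). *Wsb1* lost its call whichever of the 6 libraries was left out (limma, adjusted p from 0.0563 to 0.122). *P4ha1* did not pass without control 1, Ring1B-KD 2 or Dzip3-KD 2 (limma, adjusted p = 0.0576, 0.0642 and 0.0675, otherwise from 0.0377).

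The genes that control HIF did not pass. Of 10 HIF pathway regulators, 0 passed by limma, 0 passed with voom weights and 0 had an unadjusted p under 0.05. The shares of all genes tested were 5.53%, 10.1% and 23.2%, so for 10 genes a limma count of 0 is near the share. None of the regulators was separated between the file sets, against 13.1% higher and 15.5% lower of all genes tested. Their median log2 difference was -0.16. *Hif1a*, the oxygen-regulated subunit of HIF-1, was at 14.6, 13.7 and 14.9 RPKM and at 16.4, 12.1 and 14.8 RPKM (log2 difference -0.01, 95% interval -0.31 to 0.30, limma, adjusted p = 0.978). HIF-1α is controlled mainly through the stability of the protein, which RNA values do not read. *Vhl*, whose product targets hydroxylated HIF-1α for degradation, differed by 0.05 (95% interval -0.51 to 0.60, limma, adjusted p = 0.929). The hydroxylase genes *Egln1* and *Egln2* differed by -0.24 and -0.28 (limma, adjusted p = 0.555 and 0.310).

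Around the entry of pyruvate into mitochondria, 0 of 12 genes were higher in the second file set, 2 were lower and 10 did not pass, with a median log2 difference of -0.09. The limma shares of all genes tested were 3.09% higher and 2.44% lower. At an unadjusted p under 0.05 the count was 6, where all genes tested gave 23.2%. With voom weights 1 of 11 was higher and 1 lower, where all genes tested gave 10.1%. *Pdha1*, the catalytic subunit of pyruvate dehydrogenase that Pdk1 phosphorylates, fell from 62.0, 54.6 and 47.2 RPKM to 37.0, 31.6 and 33.3 RPKM (-0.66, SE 0.13, limma, adjusted p = 0.0223). *Pdp2*, a phosphatase that removes that phosphate, fell from 17.8, 17.9 and 13.3 RPKM to 8.65, 12.3 and 8.30 RPKM (-0.70, SE 0.18, limma, adjusted p = 0.0496). The kinase *Pdk1*, the phosphatase *Pdp2* and their shared substrate *Pdha1* were thus all lower in the second file set. Other kinase genes of the list moved the other way. *Pdk3* went from 2.65, 2.62 and 2.82 RPKM to 4.08, 3.06 and 4.05 RPKM. *Pdk4* went from 0.384, 0.338 and 0.258 RPKM to 0.789, 1.33 and 1.21 RPKM, on 3 to 4 and 9 to 15 reads. Neither passed by limma. In this list 2 genes were higher and 4 lower without overlap, against 13.1% and 15.5% of all tested genes. The call for *Pdp2* was lost with 75th percentile scaling (-0.65, limma, adjusted p = 0.0709), with quantile normalization (-0.64, adjusted p = 0.0786) and with a pseudocount of 0.1 (-0.75, adjusted p = 0.0549). It was also lost without control 1, control 2, Ring1B-KD 2 or Dzip3-KD 2 (limma, adjusted p from 0.121 to 0.158). *Pdha1* passed without Ring1B-KD 1 (limma, adjusted p = 0.0261) and lost its call without any other library (adjusted p from 0.0588 to 0.0882). No whole reads were recovered for *Pdha1*, so the fit with voom weights did not cover it.

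**Figure D4:**
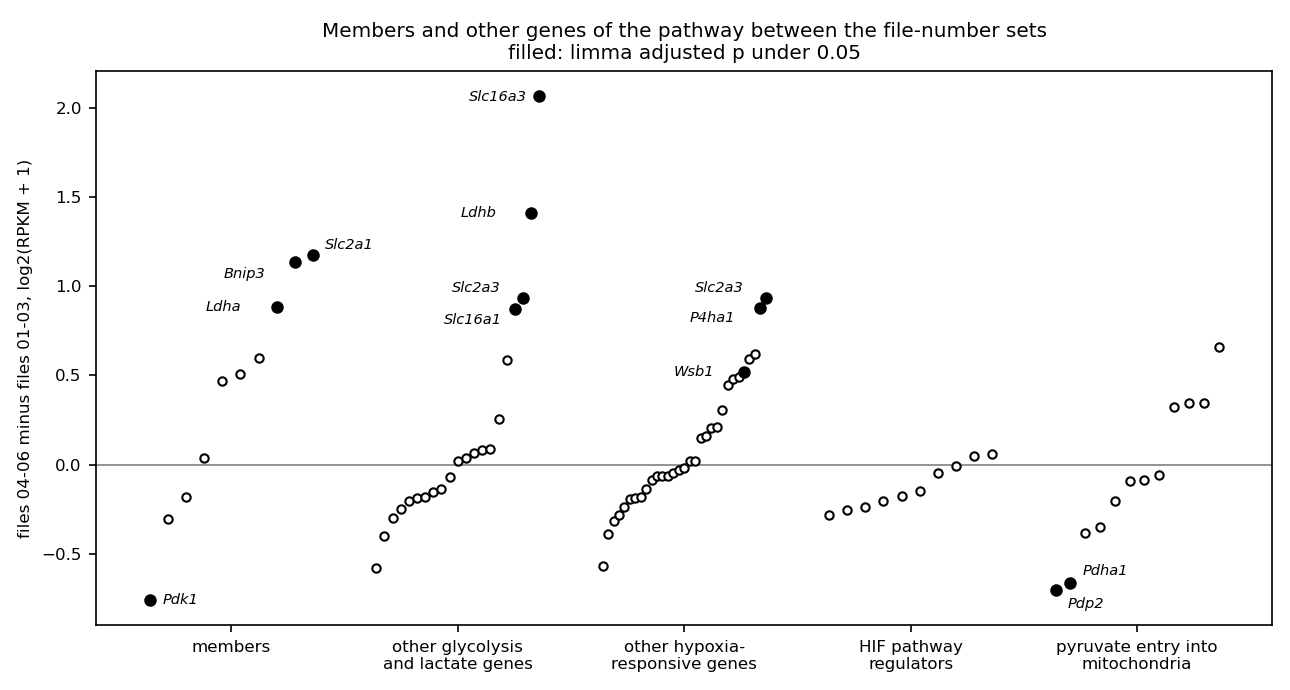
Difference between the file sets (files 4 to 6 minus files 1 to 3, vertical axis, on log2(RPKM + 1)) for the tested genes of 5 lists (horizontal axis), each sorted by value, with filled points for an adjusted p under 0.05 by limma. *Slc16a3* at 2.06 is the highest point, the lists centre near 0 apart from the members, and no regulator of the HIF pathway is filled.

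By sample label, none of the 10 members passed in any comparison. For Dzip3-KD minus control, 0 members and 0.0% of all tested genes passed (limma), and 0 members passed with voom weights on recovered reads. At an unadjusted p under 0.05 the counts were 2 of 10 members and 12.2% of all tested genes. *Slc2a1* had means of 57.9 and 25.4 RPKM in the libraries labelled Dzip3-KD and control (log2 difference 1.14, SE 0.36, limma, adjusted p = 0.319). *Ldha* had means of 51.7 and 30.2 RPKM (0.75, SE 0.33, limma, adjusted p = 0.409), and *Bnip3* 4.08 and 1.40 RPKM (1.01, SE 0.46, limma, adjusted p = 0.415). *Pdk1* had means of 4.01 and 6.62 RPKM (-0.62, SE 0.34, limma, adjusted p = 0.476). The groups did not overlap for 5 members that were higher and 3 that were lower, whereas 20.4% and 30.3% of all tested genes were separated in these directions.

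These label differences could not be separated from the file sets. When the file set was added to the fit as a block, the sign of Dzip3-KD minus control turned for 6 of the 10 members, among them *Slc2a1* (-0.11), *Ldha* (-0.39), *Bnip3* (-0.37) and *Pdk1* (0.42). The member median was then -0.27, against 0.19 without the block and up to 0.40 when control 1 was left out. The blocked value rests on the libraries labelled Ring1B-KD, which alone occur in both file sets.

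For Ring1B-KD minus control, 0 members and 0.0% of all tested genes passed (limma), 0 members passed with voom weights, and 0 members and 5.1% of all tested genes had an unadjusted p under 0.05. The log2 differences were 0.55 for *Slc2a1*, 0.87 for *Bnip3*, 0.50 for *Ldha* and -1.32 for *Eno1*, and the adjusted p of the 10 members ranged from 0.902 to 0.990 (limma). The groups did not overlap for 3 members that were higher and 0 that were lower, against 14.9% and 18.9% of all tested genes. Its 2 libraries lay in different file sets and gave different values. Against both controls, *Slc2a1* differed by -0.08 in the library labelled Ring1B-KD 1 and by 1.17 in Ring1B-KD 2, *Ldha* by -0.08 and 1.07, and *Pdk1* by 0.32 and -0.71. The library from the first file set was near the controls for *Slc2a1* and *Ldha* and the library from the second was not.

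For Dzip3-KD minus Ring1B-KD, 0 members and 0.0% of all tested genes passed (limma), 0 members passed with voom weights, and 1 member and 4.63% of all tested genes had an unadjusted p under 0.05. That member was *Aldoa*, with means of 82.2 and 112.2 RPKM (-0.44, SE 0.16, limma, adjusted p = 0.864). It was also the only member without overlap between these groups, on the lower side, where 20.4% of all tested genes stood, against 12.6% on the higher side. The median difference of the members was 0.12, and that of all tested genes -0.03.

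By the condition word in the file name, within the file sets, none of the 10 members passed either. For the word Ring1BKD minus the word control, 0 members passed against 0.416% of all tested genes (limma), 0 passed with voom weights, and 1 member had an unadjusted p under 0.05 against 8.31%. That member was *Ldha*, at 27.2 against 33.2 RPKM in the first file set (labels control 2 and control 1) and at 45.8 against 64.1 RPKM in the second (labels Dzip3-KD 1 and Ring1B-KD 2). Its fitted difference was -0.38 (SE 0.13, limma, adjusted p = 0.480). The member median was -0.27 and that of all tested genes -0.08, with 2 of 10 members and 4032 of 11538 genes above 0. Without 1 library the member median ranged from -0.34 (without control 2) to -0.03 (without Dzip3-KD 1). In the second file set all members but *Eno1* and *Egln3* were lower with this word. Of the 10 members, 1 was higher and 5 were lower with the word Ring1BKD in both file sets, and 4 changed sign between them, while 59.2% of all tested genes kept their sign.

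For the word Dzip3KD minus the word control, 0 members and 0.0% of all tested genes passed (limma), 0 members passed with voom weights, and 1 member had an unadjusted p under 0.05 against 6.52% of all tested genes. That member was *Eno1*, at 1.66 against 21.7 RPKM in the first file set (labels Ring1B-KD 1 and control 1) and at 8.07 against 8.35 RPKM in the second (labels Dzip3-KD 2 and Ring1B-KD 2). Its fitted difference of -1.57 (SE 0.58, limma, adjusted p = 0.754) came almost wholly from the first file set. *Pdk1* was higher with this word in both sets, at 8.46 against 5.82 RPKM and at 4.90 against 3.62 RPKM (0.41, SE 0.18, limma, adjusted p = 0.754). Across the members 2 were higher and 3 lower in both sets and 5 changed sign, while 51.9% of all tested genes kept their sign. For the word Dzip3KD minus the word Ring1BKD, 0 members passed against 0.676% of all tested genes (limma), 0 members passed with voom weights, and 0 members had an unadjusted p under 0.05 against 10.1%. The member median was 0.17 and that of all tested genes 0.05, with 8 of 10 members and 6714 of 11538 genes above 0. Without 1 library that median ranged from -0.01 (without Dzip3-KD 1) to 0.31 (without control 2).

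**Figure D5:**
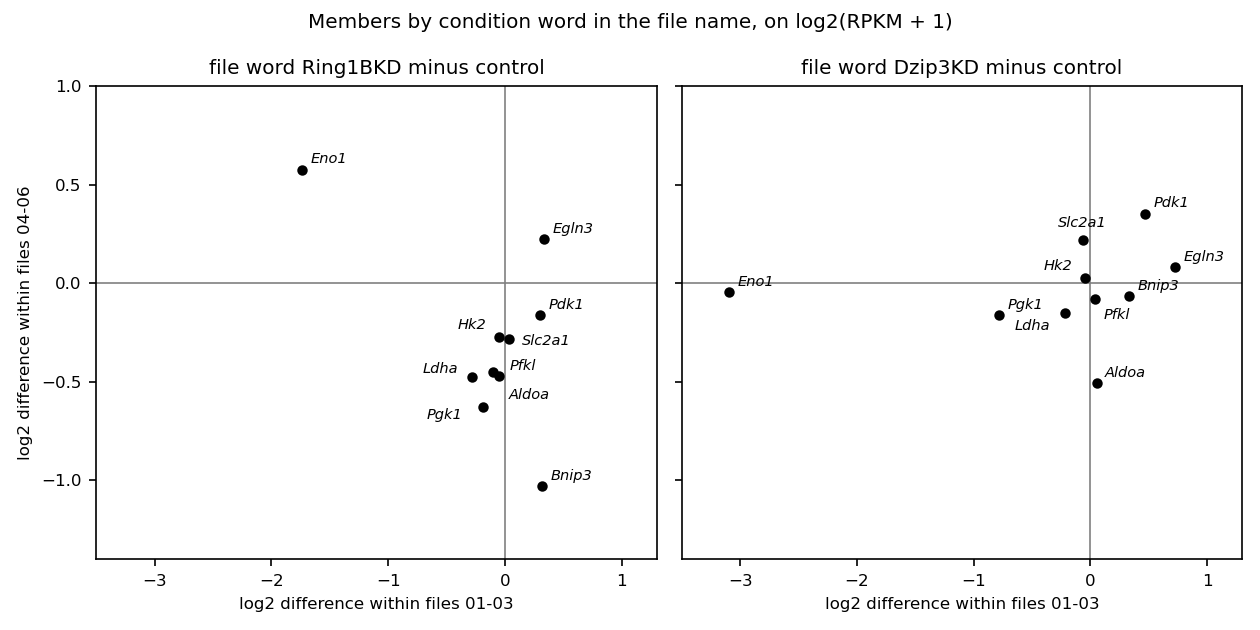
Difference of each member between 2 libraries of the first file set (horizontal axis) and the same difference in the second file set (vertical axis), on log2(RPKM + 1), for the file word Ring1BKD minus control (left) and Dzip3KD minus control (right). Members that kept their sign lie in the lower left or upper right field, and these held 6 of 10 on the left and 5 of 10 on the right, and *Eno1* stands apart at -1.74 and -3.09 in the first set.

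Within the second file set many genes, members and others alike, were lowest in the same library. This was the library labelled Dzip3-KD 1 with the file word Ring1BKD, in which 7 of the 10 members had their lowest value of the set: *Slc2a1*, *Hk2*, *Pfkl*, *Pgk1*, *Ldha*, *Pdk1* and *Bnip3*. Among all tested genes 48.5% were lowest there. The RPKM values of that library summed to 126356, the lowest of the 6 libraries, which ranged up to 140481. In the first file set the corresponding library, labelled control 2, was lowest for 4 members, against 36.5% of all tested genes.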

How the data were processed

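Stranded mRNA libraries of 6 mES cell cultures were sequenced on a MiSeq instrument. Per the methods, the authors aligned reads to mm9 with an Illumina pipeline, allowing 1 mismatch, kept reads unique to a gene and deposited RPKM values, 1 list per library. The gene annotation and tool versions are not given in the sources used here. RPKM corrects for exon length and depth but not for composition, so a few abundant genes can shift all others.

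Groups were taken from the sample labels; file numbers and file words were copied as separate columns. The members and the other gene lists were chosen with earlier results of these data known, and so was the split by file number. Testing covered 11538 of 16668 genes, those whose mean reached 0.5 RPKM, and used log2(RPKM + 1) with limma 3.58.1 in R 4.3.3, with a mean trend and Benjamini-Hochberg adjustment over all of them; fold changes on this scale understate those of low genes. The label fit had 3 groups, the file-number fit 2 sets of 3, and the file-word fit the word with the set as a block. The code was tested on simulated data. P-values measure the spread between these libraries only. Whole reads were recovered for 93.6% of genes (9 of 10 members, not *Eno1*) from the RPKM steps and tested with voom weights as an alternative chosen after the data were seen. The named genes outside the members were the core enzymes and regulators, the 5 smallest limma p-values of the file-number fit in each of the glycolysis and hypoxia lists and the 2 smallest in the pyruvate list. Alternatives were another pseudocount, filter or scaling, blocks, and leaving out each library.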

Additional observations from a re-analysis of the deposited data

How the results depend on the processing

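Between the file sets, 4 members passed under a pseudocount of 0.1, quantile normalization, a minimum mean of 2 RPKM and with the file word as a block, 5 under 75th percentile scaling and with voom weights, and 2 with no filter on low values, where 16668 genes share the adjustment. Leaving out each library gave 1 to 3 members (1 without Ring1B-KD 2 or Dzip3-KD 2; 2 without control 1, control 2 or Ring1B-KD 1; 3 without Dzip3-KD 1). Over all genes the count was 638, against 285 with no filter, 1083 with voom weights and 67 to 359 without a library, the lowest without Dzip3-KD 2; the share of higher calls was 55.8%, 67.5% without control 1 and 49.3% without Dzip3-KD 2 (33 higher, 34 lower). Of 833 values of single members under alternatives, 748 kept their direction and their side of the threshold, 66 turned sign, none of them among the values that passed, 13 lost a call and 6 gained one. The cause was not tested.

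With the file set as a block, signs turned in the label comparisons. For Dzip3-KD minus control the values were -0.11 (*Slc2a1*), -0.17 (*Pfkl*), -1.08 (*Pgk1*), -0.39 (*Ldha*), 0.42 (*Pdk1*) and -0.37 (*Bnip3*), with a member median of -0.27. For Ring1B-KD minus control they were -0.079 (*Slc2a1*), -0.077 (*Ldha*) and 0.32 (*Pdk1*). For Dzip3-KD minus Ring1B-KD they were -0.032 (*Slc2a1*), -0.27 (*Pfkl*), -0.39 (*Pgk1*), -0.31 (*Ldha*), 0.096 (*Pdk1*), -0.55 (*Bnip3*) and 0.15 (*Egln3*). With 75th percentile scaling and quantile normalization, the word difference Dzip3KD minus control turned to 0.020 and 0.020 for *Hk2* and 0.0058 and 0.0096 for *Pfkl*, and Dzip3KD minus Ring1BKD to -0.035 and -0.040 for *Aldoa*.

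Leaving out each library gave ranges that crossed 0 for these values. Between the file sets *Eno1* ranged from -0.23 to 1.31 and *Egln3* from -0.14 to 0.22. For Ring1B-KD minus control, *Slc2a1* ranged from -0.079 to 1.17, *Pgk1* from -0.68 to 0.50, *Ldha* from -0.077 to 1.07, *Pdk1* from -0.71 to 0.32 and *Rnf2* from -0.13 to 0.43. For Dzip3-KD minus control, *Pgk1* ranged from -0.13 to 0.34 and *Eno1* from -1.01 to 0.72. For Dzip3-KD minus Ring1B-KD, *Slc2a1* ranged from -0.032 to 1.22, *Pfkl* from -0.27 to 0.45, *Pgk1* from -0.39 to 0.79, *Ldha* from -0.31 to 0.83, *Pdk1* from -0.94 to 0.096, *Bnip3* from -0.55 to 0.84 and *Egln3* from -0.28 to 0.15, and the member median from -0.20 to 0.62, the latter without Ring1B-KD 2. For the word Ring1BKD minus control, *Slc2a1* ranged from -0.35 to 0.11, *Eno1* from -1.92 to 0.76, *Pdk1* from -0.13 to 0.27 and *Bnip3* from -0.93 to 0.22. For the word Dzip3KD minus control, *Slc2a1* ranged from -0.14 to 0.30, *Hk2* from -0.10 to 0.081, *Pfkl* from -0.14 to 0.10, *Aldoa* from -0.47 to 0.020 and *Bnip3* from -0.30 to 0.57. For the word Dzip3KD minus Ring1BKD, *Slc2a1* ranged from -0.028 to 0.43, *Aldoa* from -0.14 to 0.21, *Pgk1* from -0.48 to 0.36, *Bnip3* from -0.085 to 1.07 and *Egln3* from -0.17 to 0.42. In each of the 3 word comparisons the count of members that passed ranged from 0 to 1 without a library, and that member was *Eno1* (without Ring1B-KD 2 in all of them, and without control 1 in Dzip3KD minus Ring1BKD).

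Replicate numbers are shared between the label groups, but deviations of same-numbered libraries correlated at -0.04, -0.24 and 0.04, so the numbers were not taken as pairs. With the replicate block 0 members passed in each label comparison, and 0, 1 and 0 of all genes; with the crossed block for Dzip3-KD minus control, chosen after the data were seen, 0 members and 0 genes passed. Reads of 6 to 36 per library limit *Bnip3* and *Egln3*.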

Other observations

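*Gapdh*, the internal control of the RT-qPCR experiments of the study, is itself a gene of glycolysis. In the RNA-seq libraries it was at 62.3, 53.8 and 89.2 RPKM in the first file set (281, 276 and 450 reads) and at 44.1, 41.1 and 48.1 RPKM in the second (218, 201 and 258 reads). The library labelled Ring1B-KD 1 was the highest and no library of the second file set reached the first. The log2 difference of -0.58 did not pass (limma, adjusted p = 0.0874), but it passed with the file word as a block (limma, adjusted p = 0.0313) and with voom weights on recovered reads (limma, adjusted p = 0.0269). Over all alternatives the adjusted p ranged from 0.0269 to 0.198. Shared sequence, at 85.8% of its 32-base words, leaves the level of *Gapdh* uncertain, and its part in the difference was not tested. The RT-qPCR experiments compared knockdown with control, not the file sets, and the check of knockdown efficiency was in serum with LIF. By label, *Gapdh* differed by -0.37 for Dzip3-KD minus control and by 0.11 for Ring1B-KD minus control (limma, adjusted p = 0.602 and 0.981).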
